A study of Phyllostachys violascens with 18 samples.

Results

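Mature leaves of the bamboo Phyllostachys violascens were compared with young leaves of the same plant type, across every gene with enough counts. The comparison used 6 of the 18 libraries of the series, 3 of typical mature and 3 of typical young leaves, and 37595 of the 42520 genes in the deposited table. The other libraries were typical immature leaves and young, immature and mature leaves of the variant ‘Flavistriatus’, whose leaf colour was the subject of the study. All groups grew in a greenhouse, with no treatment, transgene or leaf age in days given, and whether the 3 libraries of a group are separate plants is not stated. The spread behind each p-value is that among the libraries within all 6 groups of the series, which were fitted together, and may be technical. Titles call the samples leaves, although culms, the stems of bamboo, stand in the tissue field. Rubisco small subunit and chlorophyll-binding protein genes, which mark leaf mesophyll, were among the most abundant genes of the mature libraries and were well above 0 in the young ones, as given below.

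A grass leaf begins as a growing organ. Its cells divide, then stretch as enzymes loosen the primary wall, and this phase needs many cytosolic ribosomes and carbon brought in from older leaves, which sucrose synthase helps to use. Cells that stop growing complete their chloroplasts, with photosystems, light-harvesting antenna and the Calvin cycle, and the leaf then exports sugar. Gene names below are the descriptions in the deposited table, which come from relatives in other plants, so a stated role is that of the named relative. Bamboo genes often occur in near-identical copies, and counts of such copies can be shifted between them. No step that marks the strand of the RNA was described, so reads of overlapping and antisense genes cannot be told apart.

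Mature libraries held 34542595, 50390394 and 46530239 counts, and young libraries 53820115, 56700238 and 58374889. Mature replicate 1 stood apart, with a median absolute log2 ratio per gene of 0.39 to replicate 2 and 0.44 to replicate 3, against 0.14 between replicates 2 and 3 and 0.13 to 0.18 among the young libraries. The first principal component, with 59.4% of the variance, placed the mature libraries at 233 to 252 and the young ones at -336 to -308. In the bulk RNA of a leaf, fewer cells of a type and less RNA per cell cannot be told apart.

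The test called 24824 of 37595 genes (66.0%), which was 11849 higher (31.5%) and 12975 lower (34.5%) in mature leaves, at an adjusted p under 0.05 in the quasi-likelihood test of edgeR. With so many genes called, the counts and shares of gene groups below are to be read beside these background shares. Without mature replicate 1, 11306 genes were higher and 12473 lower. Fitted on the 6 libraries alone, 11557 were higher and 13845 lower. The split depended on the scaling: 47.7% of calls were higher with the trimmed mean of M values (TMM), against 37.0% (9261 higher, 15763 lower) without that factor and 36.6% (8450 and 14665) in limma on log2(FPKM + 1). Mature libraries had TMM factors of 0.800 to 0.859 and young ones of 1.10 to 1.13, and leaving them out moved the median of all genes by -0.40 on the log2 scale. Changes below are therefore relative to the bulk of genes, whose median log2 fold change was -0.065. Size factors of DESeq2's kind moved the median by -0.12. FPKM values (fragments scaled to transcript length and library size) are as deposited, without the TMM factor.

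Large changes were common, and more were called downward than upward. A change of 4-fold or more was called upward in 5914 genes and downward in 7822, and one of 32-fold or more upward in 1862 and downward in 4253. Tested genes listed at 0 in a whole group (2960 in mature and 808 in young leaves) enter these counts where called. The size of their change depends on how a 0 is treated, and the split without them was not counted. Of all genes in the table, 2872 were listed at 0 in all 3 mature libraries and above 0 in all 3 young ones, and 532 genes showed the opposite. Mature libraries were also less even. Their 10 most abundant genes took 5.66%, 6.56% and 6.83% of the counts, against 2.63%, 2.55% and 2.32% in young leaves, and 1370, 1545 and 1538 genes held the first 50% of counts in mature leaves, against 2929, 2910 and 3016 in young leaves.

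Of 39 tested genes for photosystems and electron transport, 38 were higher and 0 lower in mature leaves (97.4% against 31.5% of all genes), with a median log2 fold change of 3.00. Of 25 tested antenna genes, whose proteins hold chlorophyll to catch light, 20 were higher and 0 lower (80.0% higher, median 2.74). Of 36 tested Calvin cycle genes 32 were higher and 3 lower (88.9% and 8.33%, median 2.64). Fitted on the 6 libraries alone, 23 antenna genes were higher. Photosystem genes took 2.54%, 2.61% and 2.60% of the counts in mature leaves, against 0.344%, 0.245% and 0.236% in young leaves. Antenna genes took 3.00%, 3.34% and 3.33% in mature leaves, against 0.784%, 0.584% and 0.576% in young leaves. Calvin cycle genes took 1.84%, 1.64% and 1.6% in mature leaves, against 0.266%, 0.198% and 0.198% in young leaves. The groups did not overlap in any of these shares, and with 3 libraries on each side the exact two-sided permutation p was 0.1 for each, the smallest that this design allows. Both held for every one of the 29 lists, also for aquaporins, whose mature share was 0.814 of the young one. A lack of overlap therefore does not set the photosynthesis lists apart. How many of all tested genes lacked overlap was not counted, so it does not set a single gene apart either.

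**Figure D1:**
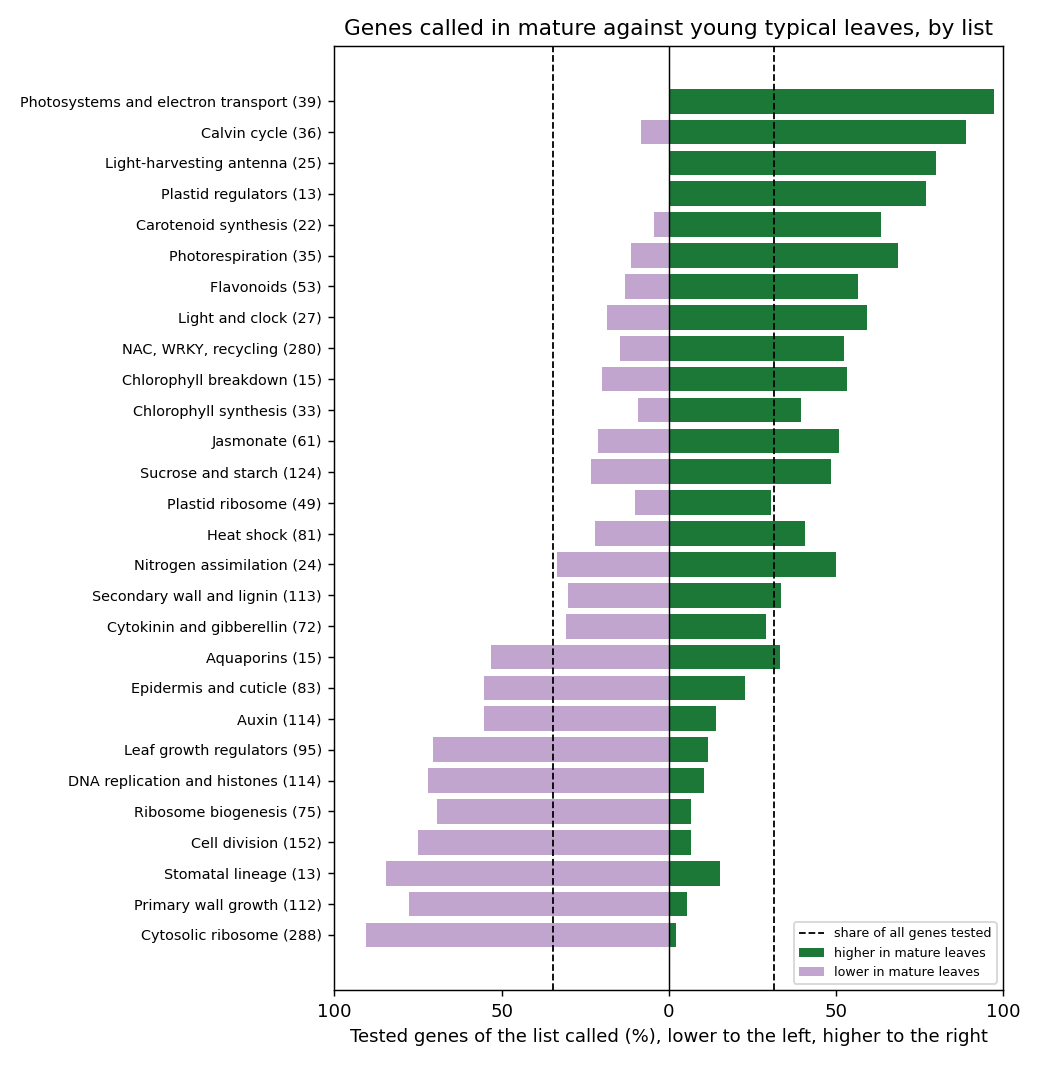
Share of the tested genes of each list that were called higher (green, to the right) or lower (lilac, to the left) in typical mature against young leaves, in percent, with the number of tested genes in brackets. Dashed lines mark the shares among all tested genes, 31.5% higher and 34.5% lower. Photosystem genes lead the list with 97.4% higher, and 90.6% of the cytosolic ribosome genes at the bottom were lower.

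The 10 kDa polypeptide of photosystem II (PH02Gene08265), a subunit on the side where water is split, had 3650, 6650 and 7100 FPKM in mature leaves, against 56.8, 35.4 and 42.5 FPKM in young leaves. Its log2 fold change was 7.42 ± 0.54 (edgeR adjusted p = 2.04e-08, with an approximate standard error after ± here and for the log2 values that follow), the upper end of the range among photosystem genes, whose lower end was 1.28. Oxygen-evolving enhancer protein 1 (PH02Gene42972), which stabilises the manganese cluster of photosystem II, had 2020, 1350 and 1220 FPKM in mature leaves, against 144, 101 and 93.7 FPKM in young leaves (log2 fold change 4.20 ± 0.54, edgeR adjusted p = 6.11e-06). In both genes every mature library lay above every young one. Subunit II of photosystem I (PH02Gene44906), the docking site of ferredoxin, had 1080, 1010 and 974 FPKM in mature leaves, against 166, 116 and 115 FPKM in young leaves (3.37 ± 0.38, edgeR adjusted p = 1.51e-06). The leaf ferredoxin-NADP reductase (PH02Gene31331), which hands electrons to NADPH, had 684, 463 and 434 FPKM in mature leaves, against 69.1, 49.2 and 49.2 FPKM in young leaves (3.68 ± 0.37, edgeR adjusted p = 5.43e-07). All 12 tested photosystem I genes, all 13 photosystem II genes and all 3 genes of the chloroplast ATP synthase were higher. Antenna genes began from a higher level, and the most abundant, a chlorophyll a/b binding protein (PH02Gene04237), had 2260, 2710 and 2720 FPKM in mature leaves, against 982, 812 and 756 FPKM in young leaves (2.01 ± 0.33, edgeR adjusted p = 6.46e-05). The change of the 25 antenna genes ran from 0.45 to 4.6 on the log2 scale.

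Rubisco, the enzyme that fixes carbon dioxide, and its activase held 4 of the 5 largest shares of counts in mature leaves. These 4 genes carry descriptions that the search for Calvin cycle genes did not take, stand outside that list, and were chosen after their values were seen. A Rubisco small subunit gene (PH02Gene30282; scaffold 11, 21676665 to 21677814, minus strand, in the deposited table, whose genome build is not given in the sources used here) had 9060, 6760 and 6530 FPKM in mature leaves, against 393, 181 and 215 FPKM in young leaves (5.26 ± 0.64, edgeR adjusted p = 3.69e-06). A second small subunit gene on the same scaffold (PH02Gene30287; 21339557 to 21341085, plus strand) had 4390, 3690 and 3640 FPKM in mature leaves, against 677, 424 and 454 FPKM in young leaves (3.35 ± 0.40, edgeR adjusted p = 3.3e-06). Rubisco activase frees the enzyme from inhibiting sugars. The activase gene PH02Gene18719 had 3420, 5150 and 5530 FPKM in mature leaves, against 54.8, 21.9 and 24.3 FPKM in young leaves (7.53 ± 0.73, edgeR adjusted p = 3.46e-07). A second activase gene (PH02Gene23790) had 3020, 4670 and 4900 FPKM in mature leaves, against 151, 71.8 and 76.8 FPKM in young leaves (5.80 ± 0.50, edgeR adjusted p = 1.01e-07). In all of these, young replicate 1 was the highest young library and still far below the mature ones. The Calvin cycle list holds 2 other tested activase genes, which were split. PH02Gene40472 was higher (log2 fold change 2.24), and PH02Gene03525, listed at 0 in all mature libraries, was lower. Within the same list, chloroplast aldolase (PH02Gene46367), which joins triose phosphates, had 1990, 1940 and 1940 FPKM in mature leaves, against 78.5, 54.5 and 55.3 FPKM in young leaves (5.39 ± 0.59, edgeR adjusted p = 1.23e-06). Phosphoribulokinase (PH02Gene03788), which makes the acceptor of carbon dioxide, had 648, 740 and 766 FPKM in mature leaves, against 57.4, 30.0 and 31.1 FPKM in young leaves (4.6 ± 0.56, edgeR adjusted p = 3.85e-06). A different gene called chloroplast aldolase 3 (PH02Gene38568) went the other way, with 40.4, 21.1 and 17.8 FPKM in mature leaves, against 76.5, 80.1 and 70.1 FPKM in young leaves (-1.06 ± 0.26, edgeR adjusted p = 0.00215).

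**Figure D2:**
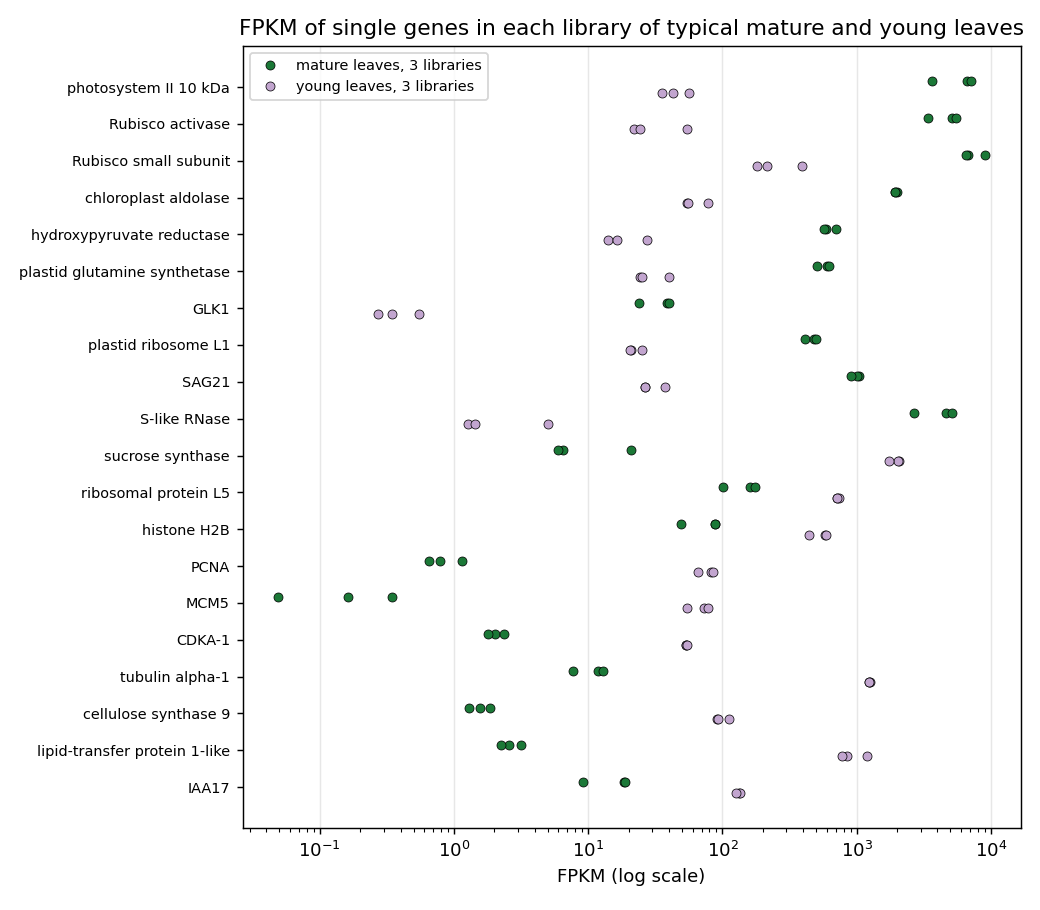
FPKM of 20 genes in each of the 3 typical mature (green) and 3 typical young (lilac) libraries, on a log axis, 1 dot per library. In each gene shown the mature dots and the young dots do not overlap: the upper 10 genes, such as Rubisco activase, were higher in mature leaves and the lower 10, such as sucrose synthase, were lower. The genes were picked from the named ones, and named genes whose groups overlapped, such as chalcone synthase, are not shown.

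Photorespiration, the recycling of the product that Rubisco makes with oxygen, was higher in 24 of 35 tested genes and lower in 4 (68.6% and 11.4%, median 2.29). Its genes took 0.849%, 0.807% and 0.799% of the counts in mature leaves, against 0.152%, 0.124% and 0.120% in young leaves. Hydroxypyruvate reductase, listed as glycerate dehydrogenase (PH02Gene31351), had 700, 591 and 570 FPKM in mature leaves, against 27.4, 14.0 and 16.3 FPKM in young leaves (5.44 ± 0.35, edgeR adjusted p = 5.47e-09). Serine hydroxymethyltransferase, which turns glycine to serine, differed by gene. The mitochondrial form 1 (PH02Gene12525) had 753, 747 and 737 FPKM in mature leaves, against 112, 99.6 and 91.2 FPKM in young leaves (3.31 ± 0.36, edgeR adjusted p = 1.1e-06). Form 4 (PH02Gene07644) had 9.64, 20.9 and 21.1 FPKM in mature leaves, against 101, 84.7 and 86.9 FPKM in young leaves (-2.00 ± 0.34, edgeR adjusted p = 0.000101).

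Pigment genes moved less uniformly. Of 33 tested genes of chlorophyll synthesis, 13 were higher and 3 lower (39.4% and 9.09%, against 31.5% and 34.5% of all genes, median 0.67). Without the TMM factor 9 were higher and 6 lower, with a median of 0.27. The 3 lower genes were both tested geranylgeranyl reductase genes (log2 fold changes -1.59 and -1.56) and 1 of 5 tested genes of the uroporphyrinogen steps. Fitted on the 6 libraries alone, 18 of 32 were higher and 5 lower. The H subunit of magnesium chelatase (PH02Gene25454), which puts the metal into the ring and commits it to chlorophyll, had 320, 232 and 213 FPKM in mature leaves, against 36.1, 24.5 and 23.9 FPKM in young leaves (3.62 ± 0.50, edgeR adjusted p = 1.27e-05). Glutamyl-tRNA reductase 2 (PH02Gene41172), the entry to the pathway, had 148, 132 and 127 FPKM in mature leaves, against 30.6, 23.9 and 21.9 FPKM in young leaves (2.84 ± 0.43, edgeR adjusted p = 3.18e-05). Protochlorophyllide reductase B (PH02Gene14847), the step that needs light, did not pass the test, with 151, 171 and 180 FPKM in mature leaves, against 168, 136 and 118 FPKM in young leaves (0.67 ± 0.49, edgeR adjusted p = 0.236), and its groups overlapped; fitted on the 6 libraries alone it had an edgeR adjusted p of 0.0131. The 4 porphobilinogen deaminase genes also did not pass. Of 22 tested carotenoid genes 14 were higher and 1 lower (63.6% and 4.55%, median 1.92). Zeaxanthin epoxidase (PH02Gene02171), which sets the balance of xanthophylls, had 120, 91.2 and 87.0 FPKM in mature leaves, against 12, 7.45 and 7.50 FPKM in young leaves (3.90 ± 0.25, edgeR adjusted p = 5.14e-09). Phytoene synthase, the entry to carotenoids, moved in both directions. PH02Gene29430 had 147, 138 and 137 FPKM in mature leaves, against 38.1, 29.2 and 28.1 FPKM in young leaves (2.58 ± 0.46, edgeR adjusted p = 0.000172). The phytoene synthase 2-like gene PH02Gene09283 had 0.0994, 0.0466 and 0.248 FPKM in mature leaves, against 11.9, 12.1 and 12 FPKM in young leaves (-6.06 ± 0.96, edgeR adjusted p = 5.36e-05).

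Of 15 tested genes of chlorophyll breakdown, 8 were higher and 3 lower; their median was 1.06, but -0.10 with no filter on low counts and -0.03 in limma over all genes. Without mature replicate 1 it was 0.33, with 7 higher and 4 lower. Chlorophyllase-2 (PH02Gene23026), which can take the phytol tail off chlorophyll, had 35.3, 34.7 and 31.9 FPKM in mature leaves, against 2.14, 1.51 and 1.59 FPKM in young leaves (4.71 ± 0.18, edgeR adjusted p = 1.86e-10). Of the 2 tested chlorophyllase genes, the other was lower and was listed at 0 in all mature libraries. Pheophytinase (PH02Gene22037), which does so during senescence, had 51.0, 21.3 and 16.9 FPKM in mature leaves, against 1.38, 0.289 and 0.536 FPKM in young leaves (5.79 ± 0.60, edgeR adjusted p = 6.98e-07). Mature replicate 1 was the highest there, and the largest adjusted p with any 1 library left out was 1.43e-05. A STAY-GREEN LIKE gene (PH02Gene39882), of a family that starts chlorophyll loss, was at 7.73, 7.51 and 7.49 FPKM in mature leaves, against 27.1, 25.1 and 22.6 FPKM in young leaves (-1.29 ± 0.22, edgeR adjusted p = 0.000112). Of the 2 tested stay-green genes, the other was higher (log2 fold change 1.06).

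Of 13 tested regulators of plastids, 10 were higher, 0 lower and 3 not called (76.9% higher, median 1.75), with 1 lower without mature replicate 1. GLK1 (PH02Gene18738), a transcription factor that switches on photosynthesis genes, had 23.8, 38.5 and 39.7 FPKM in mature leaves, against 0.553, 0.272 and 0.343 FPKM in young leaves (6.85 ± 0.44, edgeR adjusted p = 6.31e-09). HY5 (PH02Gene25237), a factor of light signalling, had 42.9, 16.2 and 12.7 FPKM in mature leaves, against 1.23, 0.255 and 0.429 FPKM in young leaves (5.68 ± 0.82, edgeR adjusted p = 2.19e-05). In both, all mature libraries lay above all young ones. The plastid sigma factor A (PH02Gene29411), a partner of the plastid RNA polymerase, had 59.1, 45.0 and 41.6 FPKM in mature leaves, against 10.4, 9.18 and 8.13 FPKM in young leaves (2.83 ± 0.23, edgeR adjusted p = 5.56e-08).

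The cytosolic ribosome had 261 of 288 tested genes lower and 6 higher (90.6% lower against 34.5% of all genes; median -1.84). They took 0.790%, 0.973% and 1.02% of the counts in mature leaves, against 3.91%, 4.05% and 3.89% in young leaves. The fall was spread over both subunits, with 104 of 117 small subunit and 157 of 171 large subunit genes lower. Ribosomal protein L5-1 (PH02Gene29817) had 101, 160 and 176 FPKM in mature leaves, against 708, 738 and 710 FPKM in young leaves (-1.89 ± 0.19, edgeR adjusted p = 4.56e-07). Ribosomal protein S18 (PH02Gene11873) had 69.0, 110 and 118 FPKM in mature leaves, against 460, 454 and 447 FPKM in young leaves (-1.78 ± 0.17, edgeR adjusted p = 2.24e-07). Mature replicate 1 was the lowest library for both genes. The acidic protein P2B (PH02Gene05379), the most abundant of the 6 that were higher, had 70, 63.2 and 57.1 FPKM in mature leaves, against 66.7, 63.0 and 55.6 FPKM in young leaves (0.47 ± 0.17, edgeR adjusted p = 0.0215), and did not pass without mature replicate 1 or without young replicate 3, with an edgeR adjusted p of up to 0.105, nor without the TMM factor (edgeR adjusted p = 0.777). Among genes that build ribosomes in the nucleolus, 52 of 75 were lower and 5 higher (69.3% and 6.67%, median -1.21). Nucleolin 1 (PH02Gene12249), which acts on new ribosomal RNA, had 8.25, 15.5 and 17.8 FPKM in mature leaves, against 133, 146 and 145 FPKM in young leaves (-2.94 ± 0.29, edgeR adjusted p = 4.89e-07).

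Of 49 tested proteins of the plastid ribosome, which translates the chloroplast genome, 15 were higher, 5 lower and 29 not called (30.6% higher, near the background of 31.5%; median 0.52). Without the TMM factor 10 were higher and 7 lower, with a median of 0.13, and without mature replicate 1 the median was 0.31. Plastid protein L1 (PH02Gene16107) had 411, 479 and 497 FPKM in mature leaves, against 25.3, 20.9 and 20.5 FPKM in young leaves (4.80 ± 0.33, edgeR adjusted p = 1.05e-08), the upper end of the range in that list. The plastid protein L19-like (PH02Gene42113) had 13.9, 11.4 and 8.96 FPKM in mature leaves, against 29.5, 36.8 and 30.5 FPKM in young leaves (-1.06 ± 0.19, edgeR adjusted p = 0.000177).

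Of 152 tested genes of cell division, 114 were lower, 10 higher and 28 not called (75% lower; median -4.11, or -4.02 with the 21 members listed at 0 in mature leaves set to a floor of 3 counts over the group). All 7 cyclin-dependent kinases, the engines of the cell cycle, were lower, as were 22 of 25 D-type cyclins, which start the cycle, 9 of 14 B-type cyclins, which bring on mitosis, and 57 of 68 kinesins, motors on microtubules. CDK inhibitors, which brake the cycle, were lower in 3 of 10 genes (30.0%, near the background), and spindle and checkpoint genes in 9 of 17 (52.9%). Cyclin-dependent kinase A-1 (PH02Gene21581) had 2.03, 1.79 and 2.34 FPKM in mature leaves, against 53.6, 53.8 and 54.7 FPKM in young leaves (-4.28 ± 0.19, edgeR adjusted p = 2.92e-10). The kinesin KIN-4A (PH02Gene30424) had 5.14, 5.18 and 5.51 FPKM in mature leaves, against 59.5, 61.6 and 61.7 FPKM in young leaves (-3.10 ± 0.14, edgeR adjusted p = 3.85e-10). Libraries of a group lay close together in both genes, and the groups did not overlap. Cyclin-B1-1 (PH02Gene37929) did not pass the test, with 26.7, 28.5 and 28.0 FPKM in mature leaves, against 35.0, 43.3 and 43.9 FPKM in young leaves (-0.13 ± 0.22, edgeR adjusted p = 0.622), although without the TMM factor it was called lower (edgeR adjusted p = 0.0412). A gene described as spindle pole body component 110-like (PH02Gene07081) was higher, with 59.2, 42.3 and 43.2 FPKM in mature leaves, against 10.4, 8.91 and 9.71 FPKM in young leaves (2.75 ± 0.16, edgeR adjusted p = 3.22e-09).

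Of DNA replication genes, 82 of 114 tested were lower and 12 higher (71.9% lower; median -2.58), or 90 lower and 6 higher without the TMM factor. All 10 genes of the MCM helicase, which opens the DNA, were lower, with a median of -8.26, and all 5 of ribonucleotide reductase, which makes its building blocks, with a median of -4.47. MCM5 (PH02Gene21199) had 0.0489, 0.345 and 0.162 FPKM in mature leaves, against 54.0, 72.5 and 78.6 FPKM in young leaves (-8.05 ± 1.03, edgeR adjusted p = 6.4e-06). The sliding clamp PCNA (PH02Gene05832) had 0.790, 1.14 and 0.650 FPKM in mature leaves, against 65.3, 81.6 and 85.5 FPKM in young leaves (-6.05 ± 0.51, edgeR adjusted p = 7.68e-08). Young replicate 1 was the lowest young library for both. Histones, which package new DNA, were lower in 32 of 45 genes (71.1%). A histone H2B (PH02Gene44357) had 49.1, 87.5 and 88.2 FPKM in mature leaves, against 440, 582 and 589 FPKM in young leaves (-2.43 ± 0.32, edgeR adjusted p = 9.26e-06). Histone H3.3 (PH02Gene23530), a form that is also made outside replication, had 222, 212 and 209 FPKM in mature leaves, against 156, 180 and 173 FPKM in young leaves (0.77 ± 0.21, edgeR adjusted p = 0.00413), a call that was lost without the TMM factor (edgeR adjusted p = 0.12).

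**Figure D3:**
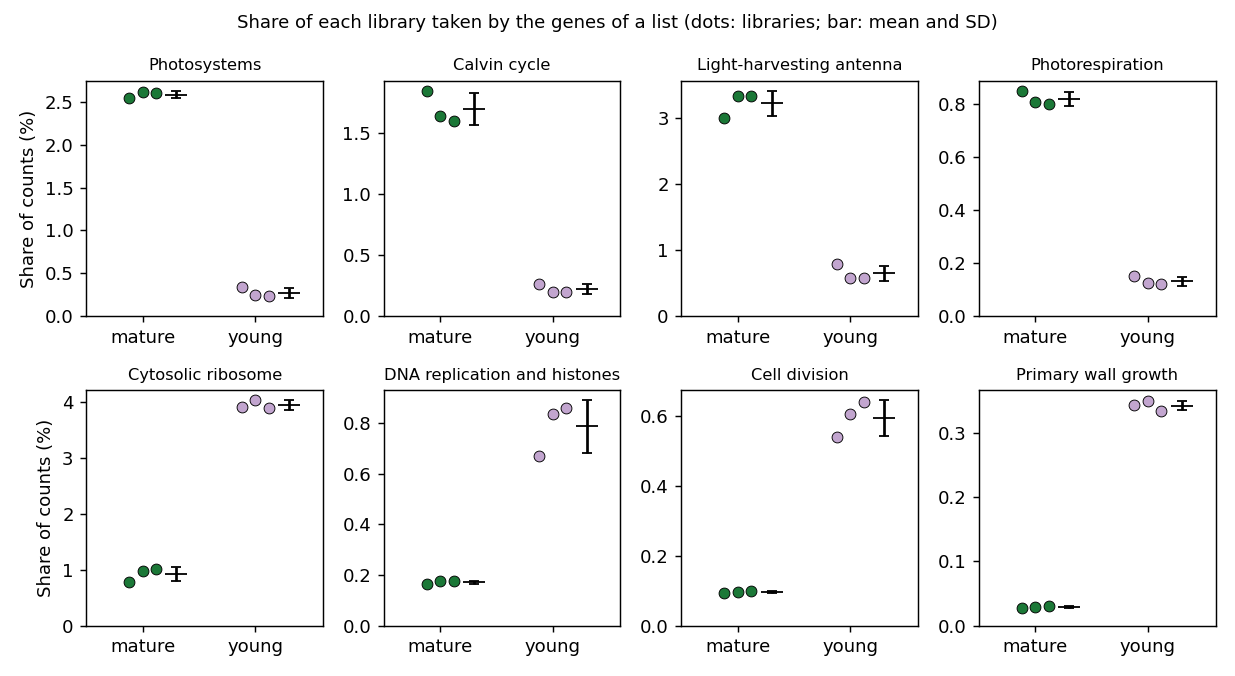
Share of all counts, in percent, taken by the genes of 8 lists in each typical mature (green, left) and typical young (lilac, right) library, with the mean and SD of 3 libraries beside the dots. The 4 upper panels, on photosynthesis, were higher in mature leaves and the 4 lower panels were lower. Groups did not overlap in any panel, as in all 29 lists.

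Of 112 tested genes that loosen and build the primary wall, 87 were lower and 6 higher (77.7% lower), with a median log2 fold change of -6.17, or -4.68 with the 48 members listed at 0 in mature leaves and the 5 listed at 0 in young leaves set to the floor. The size of that median depended on how low values were treated, and it was -1.13 in limma on log2(FPKM + 1) over all genes. These genes took 0.0272%, 0.0296% and 0.0299% of the counts in mature leaves, against 0.343%, 0.350% and 0.335% in young leaves. Expansins, which loosen the wall, were lower in 39 of 51 genes, and xyloglucan endotransglucosylases, which cut and rejoin its tethers, in 17 of 21. Expansin-B4 (PH02Gene02934) had 0.358, 0 and 0.231 FPKM in mature leaves, against 121, 117 and 99.0 FPKM in young leaves (-8.74 ± 1.87, edgeR adjusted p = 0.000748). Xyloglucan endotransglucosylase 9 (PH02Gene46018) was listed at 0 in all mature libraries, against 94.7, 121 and 121 FPKM in young leaves. Endoglucanase 3 (PH02Gene36349), which trims cellulose, was likewise listed at 0 in all mature libraries, against 38.4, 41.3 and 51.3 FPKM in young leaves. The cellulose synthase subunit 3 (PH02Gene49673), of the primary wall, kept a measurable level, with 7.22, 13.4 and 13.8 FPKM in mature leaves, against 112, 89.2 and 93.1 FPKM in young leaves (-2.69 ± 0.71, edgeR adjusted p = 0.00358). Alpha tubulins, the blocks of the microtubules that guide cellulose, held 2 of the 5 largest shares of counts in young leaves and were chosen after that was seen. Tubulin alpha-1 (PH02Gene12444) had 7.65, 11.9 and 12.9 FPKM in mature leaves, against 1260, 1240 and 1240 FPKM in young leaves (-6.43 ± 0.68, edgeR adjusted p = 8.16e-07).

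Enzymes of sugar metabolism differed in direction. Of 124 tested genes for sucrose and starch 60 were higher and 29 lower (48.4% and 23.4%; median 0.92, or 0.49 without the TMM factor). Sucrose synthase, which opens imported sucrose for growth, was lower in 7 of 10 genes and higher in 1. PH02Gene04423 (scaffold 15, 33180557 to 33187915, plus strand), the gene with the largest share of counts in young leaves, had 20.7, 6.44 and 5.94 FPKM in mature leaves, against 2060, 2030 and 1740 FPKM in young leaves (-6.99 ± 0.86, edgeR adjusted p = 4.28e-06). A second sucrose synthase, PH02Gene46034, had 0.406, 0.321 and 0.774 FPKM in mature leaves, against 581, 605 and 509 FPKM in young leaves (-9.71 ± 0.83, edgeR adjusted p = 8.93e-08). The summed share of the list was lower in mature leaves although more of its genes were higher, at 0.905%, 0.619% and 0.582% in mature leaves, against 1.39%, 1.37% and 1.22% in young leaves. Starch synthases were higher in 13 of 19 genes and lower in 1 (68.4% and 5.26%). Beta-amylases, which break starch to maltose, were higher in 11 of 16 (68.8%) and lower in 0. A beta-amylase (PH02Gene44774) had 453, 554 and 571 FPKM in mature leaves, against 144, 103 and 104 FPKM in young leaves (2.59 ± 0.44, edgeR adjusted p = 9.15e-05). Granule-bound starch synthase 1b (PH02Gene37359), which makes amylose, had 694, 249 and 175 FPKM in mature leaves, against 77.3, 78.3 and 76.8 FPKM in young leaves (2.73 ± 0.52, edgeR adjusted p = 0.000292). Mature replicate 1 was far above the others there, and the edgeR adjusted p was at most 0.00208 with any 1 library left out. SWEET transporters, which let sugar out of cells, were split, with 10 of 24 higher and 10 lower (41.7% each).

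Of 24 tested genes of nitrogen assimilation, 12 were higher and 8 lower, with 5 lower in place of 8 without mature replicate 2, without mature replicate 3 or without young replicate 2. The plastid glutamine synthetase (PH02Gene00428), which captures ammonium in the chloroplast, had 506, 601 and 626 FPKM in mature leaves, against 40.3, 24.2 and 25.1 FPKM in young leaves (4.69 ± 0.36, edgeR adjusted p = 3.17e-08). A cytosolic glutamine synthetase 1-1 (PH02Gene01111) had 30.4, 34.9 and 39.2 FPKM in mature leaves, against 69.1, 66.8 and 64.2 FPKM in young leaves (-0.52 ± 0.21, edgeR adjusted p = 0.044), and lost its call without any 1 of the 6 libraries (edgeR adjusted p of up to 0.106). Nitrate reductase (PH02Gene42935), the entry of nitrate, had 76.8, 50.3 and 42.7 FPKM in mature leaves, against 0.346, 0.468 and 0.711 FPKM in young leaves (7.24 ± 0.75, edgeR adjusted p = 6.77e-07). Nitrite reductase (PH02Gene02530), the next step, had 133, 74.0 and 61.7 FPKM in mature leaves, against 4.56, 3.10 and 3.02 FPKM in young leaves (5.10 ± 0.72, edgeR adjusted p = 1.78e-05).

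The transcription factors that shape a growing leaf were mostly lower. Of 95 tested genes 67 were lower and 11 higher (70.5% lower), with a median of -4.77, or -3.93 with the 34 members listed at 0 in mature leaves set to the floor. Growth-regulating factors, which promote cell proliferation in leaves, were lower in 19 of 21 genes, and YABBY factors, which mark the lower leaf side in Arabidopsis, in all 11. TCP13-like (PH02Gene08501), of a family in which some members end proliferation, had 10.9, 10.7 and 9.02 FPKM in mature leaves, against 44.6, 48.4 and 41.9 FPKM in young leaves (-1.71 ± 0.14, edgeR adjusted p = 8.46e-08). The knotted-1-like 11 homeobox gene (PH02Gene36015) was among the 11 that were higher, with 196, 222 and 230 FPKM in mature leaves, against 45.2, 35.0 and 34.6 FPKM in young leaves (2.92 ± 0.21, edgeR adjusted p = 1.99e-08). An aintegumenta-like gene (PH02Gene48310) had 26.7, 26.5 and 23.6 FPKM in mature leaves, against 23.6, 21.7 and 22.7 FPKM in young leaves (0.60 ± 0.20, edgeR adjusted p = 0.0142), but its call was lost without mature replicate 1 (edgeR adjusted p = 0.052) and without the TMM factor (edgeR adjusted p = 0.43). Growth-regulating factor 11-like (PH02Gene45969) did not pass, with 19.2, 19.9 and 17.0 FPKM in mature leaves, against 21.5, 20.9 and 22.8 FPKM in young leaves (0.21 ± 0.14, edgeR adjusted p = 0.212), and the sign of its change turned negative without the TMM factor.

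Of 114 tested auxin genes 63 were lower and 16 higher (55.3% lower; median -1.59), with 18 of 22 auxin carriers, which move the hormone between cells, and 17 of 30 Aux/IAA repressors among the lower ones. The repressor IAA17 (PH02Gene26638) had 9.19, 18.6 and 18.8 FPKM in mature leaves, against 133, 135 and 126 FPKM in young leaves (-2.68 ± 0.26, edgeR adjusted p = 3.04e-07). The small auxin-up RNA SAUR32-like (PH02Gene48807) was higher, with 85.6, 61.5 and 48.1 FPKM in mature leaves, against 5.18, 3.25 and 4.18 FPKM in young leaves (4.38 ± 0.26, edgeR adjusted p = 2.92e-09). Cytokinin and gibberellin genes were split, with 21 of 72 higher and 22 lower (29.2% and 30.6%, both near the background). Their median of 0.10 had the opposite sign without the TMM factor, at -0.30. The response regulator ORR4 (PH02Gene21053), a target of cytokinin signalling, had 156, 123 and 117 FPKM in mature leaves, against 21.9, 17.4 and 16.3 FPKM in young leaves (3.27 ± 0.29, edgeR adjusted p = 1.54e-07). A gibberellin 20-oxidase 2-like gene (PH02Gene15516), which makes active gibberellin, was listed at 0 in all mature libraries, against 2.78, 3.97 and 2.72 FPKM in young leaves.

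Genes of stress, recycling and light signalling were more often higher. A list of NAC and WRKY factors, autophagy, metacaspase and senescence-associated proteins had 280 tested genes, 147 higher and 41 lower (52.5% and 14.6%, median 1.27). Most of them were NAC and WRKY factors, taken by family name and not by a role in senescence. Higher were 74 of 123 WRKY factors (60.2%), 21 of 33 autophagy proteins (63.6%) and 39 of 101 NAC factors (38.6%, nearer the background of 31.5%). SENESCENCE-ASSOCIATED GENE 21 (PH02Gene40131), a small mitochondrial protein linked to oxidative stress in Arabidopsis, had 1040, 1000 and 902 FPKM in mature leaves, against 37.1, 26.6 and 26.7 FPKM in young leaves (5.45 ± 0.25, edgeR adjusted p = 4.09e-10). The factor NAC41 (PH02Gene19621) had 104, 144 and 148 FPKM in mature leaves, against 5.13, 4.52 and 4 FPKM in young leaves (5.27 ± 0.33, edgeR adjusted p = 4.34e-09). Autophagy protein 8C (PH02Gene25011), which coats the vesicles that carry cell contents to the vacuole, had 114, 110 and 108 FPKM in mature leaves, against 75.5, 64.8 and 57.8 FPKM in young leaves (1.17 ± 0.23, edgeR adjusted p = 0.000311). Metacaspase-5 (PH02Gene03878), a protease, was lower, with 15.8, 12.1 and 13.2 FPKM in mature leaves, against 28.9, 28.4 and 26.5 FPKM in young leaves (-0.59 ± 0.18, edgeR adjusted p = 0.00769).

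Of 61 tested jasmonate genes 31 were higher and 13 lower (50.8% and 21.3%; median 1.09, or 0.67 without the TMM factor), including 13 of 20 TIFY repressors of jasmonate signalling on the higher side. Lipoxygenases, which start jasmonate synthesis, were split, with 7 of 14 higher and 7 lower. Lipoxygenase 2.3 was encoded by genes of opposite behaviour. PH02Gene44707 had 107, 290 and 309 FPKM in mature leaves, against 42.3, 35.1 and 33.8 FPKM in young leaves (3.06 ± 0.56, edgeR adjusted p = 0.000181). The other gene, PH02Gene10309, had 0.171, 0.221 and 0.255 FPKM in mature leaves, against 140, 140 and 123 FPKM in young leaves (-8.83 ± 0.45, edgeR adjusted p = 7.99e-10). Of 27 tested light and clock genes 16 were higher and 5 lower (59.3% and 18.5%, median 1.86). Among the higher ones were 12 of 17 CONSTANS-like genes, relatives of a factor that reads day length. A constans-like gene (PH02Gene34984) had 390, 296 and 273 FPKM in mature leaves, against 20.1, 16.8 and 15.7 FPKM in young leaves (4.62 ± 0.34, edgeR adjusted p = 1.98e-08). The time of day of sampling is not given in the sources used here. Protein GIGANTEA (PH02Gene42221), of the clock, did not pass, with 50.8, 85.7 and 92.9 FPKM in mature leaves, against 79.7, 75.9 and 81.2 FPKM in young leaves (0.36 ± 0.21, edgeR adjusted p = 0.139). Its sign turned negative without the TMM factor, and it was called higher without mature replicate 1 (edgeR adjusted p = 0.025). Phytochrome B (PH02Gene37618), a red light receptor, had 9.40, 18.2 and 18.1 FPKM in mature leaves, against 13.3, 13.2 and 14.0 FPKM in young leaves (0.58 ± 0.20, edgeR adjusted p = 0.017), overlapped between groups, and did not pass without mature replicate 2 or 3 (edgeR adjusted p of up to 0.0828) or without the TMM factor (edgeR adjusted p = 0.431).

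Heat shock genes were mixed, with 33 of 81 higher and 18 lower (40.7% and 22.2%). Small heat shock proteins, which keep damaged proteins from clumping, were higher in 6 of 11 genes and lower in 0, and a class I member (PH02Gene00227) had 318, 207 and 179 FPKM in mature leaves, against 9.38, 7.55 and 5.93 FPKM in young leaves (5.38 ± 0.51, edgeR adjusted p = 2.78e-07). The 70 kDa chaperones were split, with 7 of 25 higher and 11 lower (28.0% and 44.0%). The most abundant, heat shock cognate 70 kDa protein 2 (PH02Gene11794), had 40.1, 47.2 and 48.2 FPKM in mature leaves, against 262, 282 and 272 FPKM in young leaves (-2.17 ± 0.27, edgeR adjusted p = 5.24e-06). Heat stress transcription factors, which switch on chaperone genes, were higher in 20 of 38 and lower in 4 (52.6% and 10.5%). Factor A-2d (PH02Gene09168) had 76.4, 76.2 and 77.3 FPKM in mature leaves, against 10.4, 6.97 and 9.63 FPKM in young leaves (3.52 ± 0.18, edgeR adjusted p = 6.74e-10). Aquaporins, the water channels of cell membranes, were also split. Of 15 tested, 5 were higher (33.3%, near the background), or 3 without young replicate 3 or without the TMM factor, and 8 were lower (53.3%). PIP2-7 (PH02Gene05090), of the plasma membrane, had 236, 507 and 551 FPKM in mature leaves, against 18.7, 5.79 and 4.47 FPKM in young leaves (5.88 ± 0.65, edgeR adjusted p = 1.29e-06). TIP1-1 (PH02Gene03621), of the vacuole, had 23.8, 13.0 and 11.4 FPKM in mature leaves, against 341, 320 and 276 FPKM in young leaves (-3.83 ± 0.52, edgeR adjusted p = 1.07e-05). TIP1-2 (PH02Gene34465), also of the vacuole, had 115, 265 and 287 FPKM in mature leaves, against 0.862, 0.193 and 0.271 FPKM in young leaves (9.36 ± 0.66, edgeR adjusted p = 1.54e-08).

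Flavonoid genes were higher in 30 of 53 tested members and lower in 7 (56.6% and 13.2%; median 1.69). Anthocyanidin reductase (PH02Gene32095), which leads to flavan-3-ols, had 141, 121 and 119 FPKM in mature leaves, against 3.74, 2.29 and 2.82 FPKM in young leaves (5.85 ± 0.25, edgeR adjusted p = 2.6e-10). Flavonoid 3'-hydroxylase (PH02Gene41827) was lower, with 1.55, 2.84 and 3.49 FPKM in mature leaves, against 85.2, 59.9 and 60.5 FPKM in young leaves (-4.29 ± 0.93, edgeR adjusted p = 0.000812). Chalcone synthase (PH02Gene44458), the entry of the pathway, rested on a single library: it had 142, 35.1 and 17.9 FPKM in mature leaves, against 25.7, 18.6 and 16.3 FPKM in young leaves (2.16 ± 0.84, edgeR adjusted p = 0.0333), overlapped between groups, and lost its call without mature replicate 1 or without any 1 of the 3 young libraries (edgeR adjusted p of up to 0.402). Without the TMM factor its edgeR adjusted p was 0.0726. Among 113 tested genes of secondary walls, lignin and xylem 38 were higher and 34 lower (33.6% and 30.1%, both near the background). Without the TMM factor 30 were higher and 38 lower. The median of these genes, 0.18, was 0.00 without that factor or without mature replicate 1. The cellulose synthase 9 of secondary walls (PH02Gene24930) had 1.29, 1.84 and 1.57 FPKM in mature leaves, against 112, 91.8 and 93.2 FPKM in young leaves (-5.56 ± 0.92, edgeR adjusted p = 7.54e-05). Caffeoyl-CoA O-methyltransferase (PH02Gene12695), of lignin synthesis, had 18.1, 26.4 and 25.6 FPKM in mature leaves, against 273, 259 and 238 FPKM in young leaves (-3.04 ± 0.40, edgeR adjusted p = 9.19e-06).

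Markers of the other cell types of a leaf moved as well, and their part in the other results was not tested. Of 83 tested genes of epidermis and cuticle 46 were lower and 19 higher (55.4% and 22.9%), with a summed share of counts of 0.128% to 0.152% in mature leaves, against 0.287% to 0.345% in young leaves. Lipid-transfer protein 1-like (PH02Gene35874), of the kind that carries wax and cutin precursors, had 2.56, 2.24 and 3.14 FPKM in mature leaves, against 1200, 852 and 784 FPKM in young leaves (-8.05 ± 1.22, edgeR adjusted p = 3.31e-05). Another member described as lipid-transfer protein 1 (PH02Gene03417) did the opposite, with 169, 215 and 211 FPKM in mature leaves, against 4.91, 2.15 and 1.61 FPKM in young leaves (6.51 ± 0.43, edgeR adjusted p = 7.08e-09). The wax gene described as Eceriferum-u (PH02Gene41075) had 31.3, 136 and 150 FPKM in mature leaves, against 0.0615, 0.0652 and 0 FPKM in young leaves (11.54 ± 1.08, edgeR adjusted p = 2.37e-07), whereas 13 of the 19 tested wax genes were lower. Glycerol-3-phosphate acyltransferase 6 (PH02Gene11382), of cutin synthesis, had 0.0742, 0.0902 and 0 FPKM in mature leaves, against 69.6, 72.9 and 68.0 FPKM in young leaves (-9.79 ± 0.78, edgeR adjusted p = 4.41e-08). In the stomatal lineage 11 of 13 tested genes were lower and 2 higher (84.6% and 15.4%), or 1 higher without mature replicate 1, any 1 young library or the TMM factor. Their share of counts was 0.00129% to 0.00171% in mature leaves, against 0.00705% to 0.00884% in young leaves. Epidermal patterning factor-like 9 (PH02Gene32825), a peptide that promotes stomata in Arabidopsis, had 0, 0.298 and 0.165 FPKM in mature leaves, against 21.8, 25.6 and 31.1 FPKM in young leaves (-6.75 ± 1.20, edgeR adjusted p = 0.000152). MUTE-like (PH02Gene48233), which ends the divisions of that lineage, was listed at 0 in all mature libraries, against 5, 6.42 and 8.97 FPKM in young leaves, and 8 of the 13 genes were listed at 0 in all mature libraries. FAMA (PH02Gene41484), which sets the fate of guard cells, had 5.43, 5.07 and 5.14 FPKM in mature leaves, against 0.587, 1.27 and 1.06 FPKM in young leaves (2.84 ± 0.47, edgeR adjusted p = 7.54e-05). Xylem and secondary wall genes took 0.176% to 0.245% in mature leaves, against 0.434% to 0.524% in young leaves. Of the 113, 26 were listed at 0 in all mature libraries and 11 in all young ones, and laccases made up 20 and 11 of these. The 3 phloem genes found took 0.000941% to 0.00103% in mature leaves, against 0.000639% to 0.000903% in young leaves, with 2 higher, or 1 without young replicate 3 and 0 without the TMM factor. Of the homeobox families searched for meristem, 9 of 18 knotted-type and 6 of 8 WUSCHEL-related genes were lower, while 6 knotted-type (33.3%, near the background) and 1 WUSCHEL-related genes were higher. The search took knotted-type genes by name, so not each of them need mark the meristem.

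The 6 largest rises and 6 largest falls among described genes with no count of 0 came from many families. An S-like RNase (PH02Gene14652; scaffold 3, 6007704 to 6010472, plus strand), of a family of secreted enzymes that recover phosphate from RNA, had 2690, 4650 and 5120 FPKM in mature leaves, against 5.03, 1.28 and 1.43 FPKM in young leaves (11.05 ± 1.30, edgeR adjusted p = 2.56e-06). A drought-induced S-like ribonuclease on the same strand (PH02Gene14651; 6039974 to 6045226) had 1060, 1780 and 1910 FPKM in mature leaves, against 1.91, 0.564 and 0.726 FPKM in young leaves (10.94 ± 1.24, edgeR adjusted p = 1.74e-06). These neighbours had the same order of mature libraries, and reads shared between them were not tested. Geraniol synthetase (PH02Gene38960), of terpene synthesis, had 1260, 351 and 208 FPKM in mature leaves, against 1.42, 1.12 and 1.01 FPKM in young leaves (9.48 ± 1.38, edgeR adjusted p = 2.34e-05). A cytochrome P450 709B2-like gene (PH02Gene07726) rose by 9.82 ± 0.59 and the peptide methionine sulfoxide reductase A2-1 (PH02Gene03262), which repairs oxidised proteins, by 9.10 ± 0.51 on the log2 scale (edgeR adjusted p = 3.12e-09 and 1.81e-09). Of genes listed at 0 in all young libraries, nicotianamine aminotransferase (PH02Gene37749), of the pathway by which grasses make iron chelators, had 35.7, 32.1 and 29.3 FPKM in mature leaves. Tyrosine N-monooxygenase (PH02Gene47626), named for an enzyme of cyanogenic glucosides in sorghum, had 19.0, 11.6 and 12.1 FPKM in mature leaves and was also listed at 0 in all young libraries.

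Of the largest falls, a subtilisin-like protease SBT1.4 (PH02Gene14192) had 0.0594, 0.0201 and 0.0332 FPKM in mature leaves, against 51.9, 63.6 and 52.0 FPKM in young leaves (-9.94 ± 1.64, edgeR adjusted p = 7.54e-05). Another gene of the same description (PH02Gene35401) went the other way, with a log2 fold change of 8.04. It took 0.309%, 0.329% and 0.338% of the counts in mature leaves, among the 10 largest shares there. Beta-D-xylosidase 4 (PH02Gene33746), which trims xylan, had 0.160, 0.0140 and 0.0837 FPKM in mature leaves, against 82.5, 82.8 and 73.2 FPKM in young leaves (-9.47 ± 1.36, edgeR adjusted p = 1.94e-05). YKT61 (PH02Gene15459), of vesicle fusion, had a log2 fold change of -9.38, beta-galactosidase 6 (PH02Gene35894) of -9.24 and DNA topoisomerase 2 (PH02Gene08767), which untangles replicated DNA, of -9.03. Macrodontain-1 (PH02Gene44231), a cysteine protease named from a bromeliad and chosen for its share of counts in young leaves, had 0.417, 0 and 0.217 FPKM in mature leaves, against 2350, 2300 and 1820 FPKM in young leaves (-12.92 ± 1.00, edgeR adjusted p = 3.34e-08). A leaf-specific thionin (PH02Gene25370), a small antimicrobial protein, was listed at 0 in all mature libraries, against 313, 371 and 401 FPKM in young leaves. A gene described as keratin-3-like (PH02Gene21933), a name from animals that gives it no role here, was listed at 0 in all mature libraries, against 482, 486 and 427 FPKM in young leaves.

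The typical immature leaves lie between these stages, and their values are set beside the others with no test here. Cytosolic ribosome genes took 3.95% ± 0.089 of the counts in young, 1.04% ± 0.0737 in immature and 0.926% ± 0.120 in mature leaves (mean ± SD, n = 3), with the immature value close to the mature one. Cell division genes took 0.595% ± 0.0511 in young, 0.148% ± 0.0103 in immature and 0.0959% ± 0.00274 in mature leaves. Primary wall genes had a share of 0.342% ± 0.00735 in young and 0.345% ± 0.223 in immature leaves, with immature libraries at 0.598%, 0.263% and 0.175%, and had 0.0289% ± 0.00146 in mature leaves. Antenna and chlorophyll synthesis genes were highest in the middle. Antenna genes took 0.648% ± 0.118 in young, 5.73% ± 0.612 in immature and 3.23% ± 0.193 in mature leaves, and chlorophyll synthesis genes 0.204% ± 0.0291 in young, 0.856% ± 0.175 in immature and 0.453% ± 0.0303 in mature leaves. Protochlorophyllide reductase B (PH02Gene14847), which did not differ past the threshold between mature and young leaves, had 168, 136 and 118 FPKM in young, 345, 347 and 360 FPKM in immature and 151, 171 and 180 FPKM in mature leaves. Rubisco small subunit PH02Gene30282 likewise had 393, 181 and 215 FPKM in young, 15300, 16400 and 17800 FPKM in immature and 9060, 6760 and 6530 FPKM in mature leaves. The list of NAC, WRKY and recycling genes had its highest share in mature leaves, with 0.261% ± 0.00643 in young, 0.393% ± 0.0233 in immature and 0.517% ± 0.00903 in mature leaves. SENESCENCE-ASSOCIATED GENE 21 (PH02Gene40131) had 37.1, 26.6 and 26.7 FPKM in young, 188, 166 and 208 FPKM in immature and 1040, 1000 and 902 FPKM in mature leaves.

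**Figure D4:**
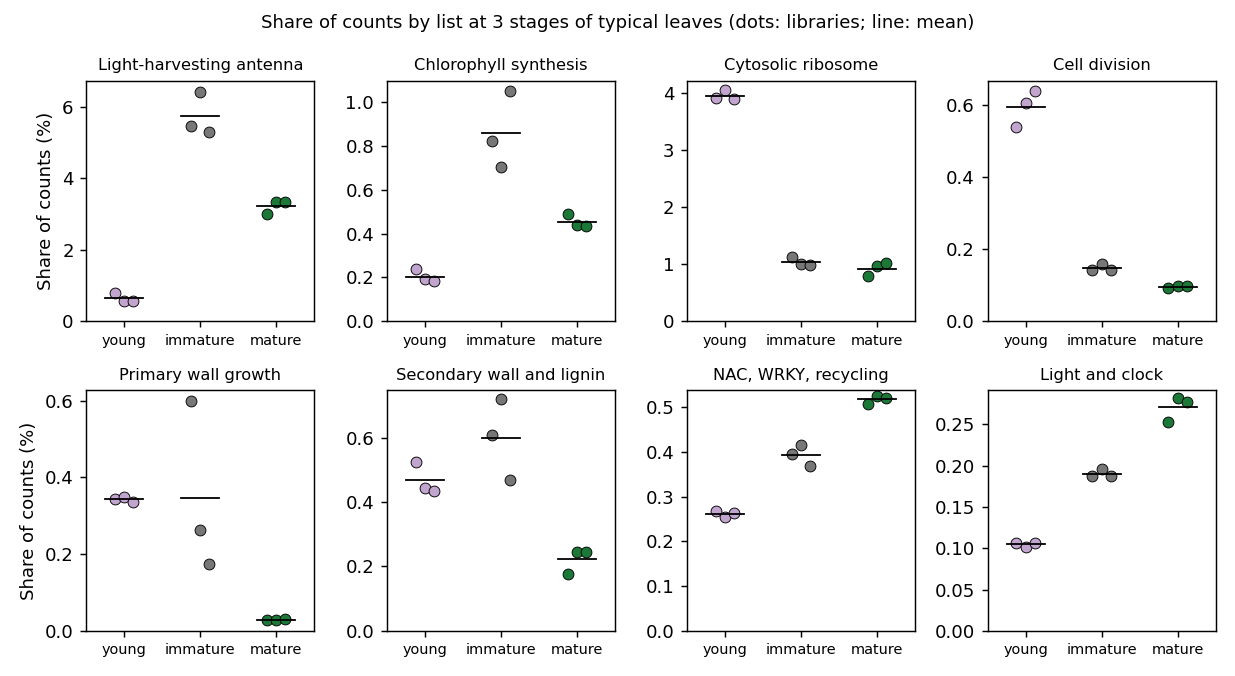
Share of all counts, in percent, taken by 8 gene lists in typical young, immature and mature leaves, with 1 dot per library and a line at the mean of 3. Antenna and chlorophyll synthesis genes were highest in immature leaves, cytosolic ribosome and cell division genes were low from the immature stage on, and primary wall genes were lowest in mature leaves.

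The change with leaf age was also set against that of the variant, by testing the difference between the mature against young changes of the plant types. This interaction was called in 3719 genes (9.89%), positive (a larger rise or smaller fall in the typical plant) in 1518 (4.04%) and negative in 2201 (5.85%). Of the cytosolic ribosome list, 147 of 288 genes were negative and 0 positive, and the list's median change was -1.84 in the typical plant against -0.94 in the variant. Their share of counts was 0.790%, 0.973% and 1.02% in typical mature and 3.91%, 4.05% and 3.89% in typical young leaves, against 1.51%, 1.46% and 2.01% in variant mature and 3.31%, 4.10% and 3.67% in variant young leaves. Mature leaves of the plant types differed in this share without overlap, and young leaves overlapped. The shares of Calvin cycle, antenna and primary wall genes also did not overlap between mature leaves of the plant types, so this does not set the ribosome list apart. The count of 147 was 71 with near-alike libraries summed, 84 without typical young replicate 2, 83 without variant young replicate 1 and 91 without variant young replicate 3. Calvin cycle genes had 9 of 36 positive and 1 negative, with medians of 2.64 in typical and 1.29 in variant plants, and heat shock genes had 15 of 81 positive and 3 negative. The count of 9 Calvin cycle genes was 2 with near-alike libraries summed, 3 without typical young replicate 2, without typical young replicate 3 or without variant young replicate 1, and 5 without typical mature replicate 1 or variant young replicate 3. In the antenna list 1 of 25 genes was positive, with medians of 2.74 in typical and 2.06 in variant plants. Antenna genes took 1.71%, 2.03% and 0.338% of the counts in variant mature and 0.514%, 0.290% and 0.383% in variant young leaves. Typical plants had 3.00%, 3.34% and 3.33% in mature and 0.784%, 0.584% and 0.576% in young leaves, without overlap at either stage. Variant mature replicate 3 stood apart from its group (median absolute log2 ratio per gene of 0.47 and 0.55 to the others, against 0.22 between these). Without it the interaction was called in 4605 genes, 126 ribosome genes were negative and 11 Calvin cycle genes were positive. It also had the lowest share of antenna and Calvin cycle genes of its group, at 0.338% and 0.301%.

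**Figure D5:**
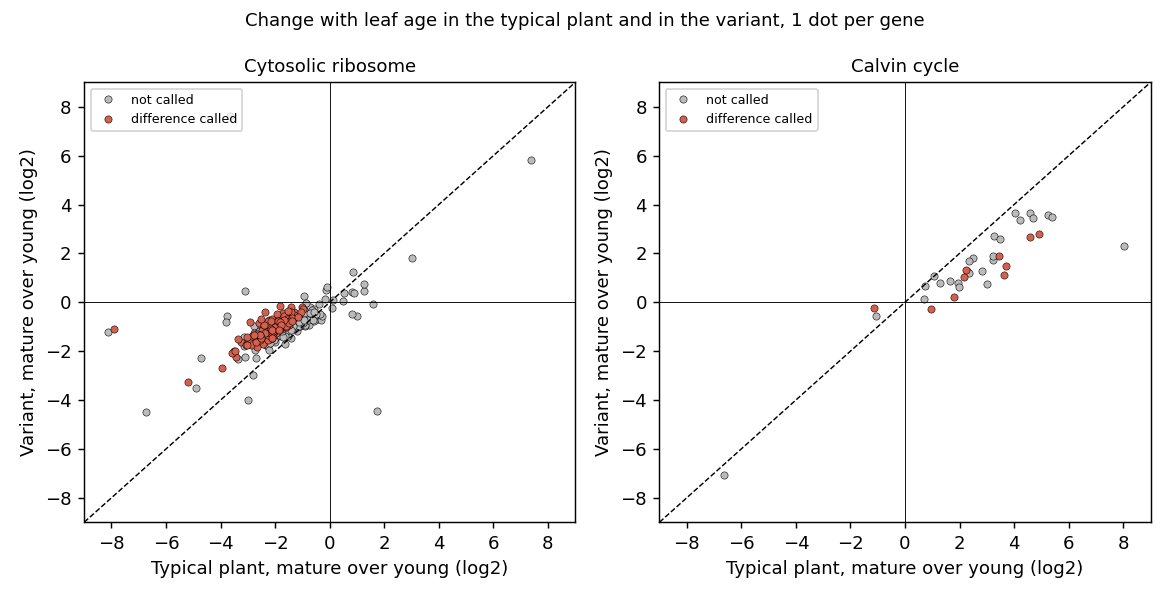
Log2 fold change of mature over young leaves in typical (horizontal axis) and variant (vertical axis) plants for the tested genes of the cytosolic ribosome and of the Calvin cycle, 1 dot per gene, with red dots where the difference between plant types was called and a dashed line at equal change. The 147 red ribosome dots lie above the line, where the fall was larger in the typical plant, and 9 of the 10 red Calvin cycle dots lie below it.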

How the data were processed

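RNA of bamboo leaves was copied from an oligo(dT) primer into full-length cDNA, amplified by PCR and fragmented by enzyme, per the labels' protocols. There were no molecular identifiers, so PCR copies of a molecule cannot be told apart. The ± values of log2 fold changes come from the edgeR test, and those of shares are the SD of 3 libraries. Salmon, FastQC and cutadapt appear in the submitters' processing notes, without versions. The build and annotation were not given in the sources used here. The deposited table, made by the authors, holds estimated counts, already whole numbers, and FPKM values for 42520 genes. Members, gene lists and named genes were chosen with earlier results of these data known.

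The estimated counts were fitted with edgeR 4.0.16 (R 4.3.3) as 6 group means over all 18 libraries, with TMM factors, a quasi-likelihood test and Benjamini-Hochberg adjustment over the 37595 genes that passed filterByExpr. A gene was called at an adjusted p under 0.05. The standard error of a log2 fold change was derived from the test, as its absolute value over the square root of the F statistic, and is approximate. The scripts were tested on simulated data. The 29 gene lists were filled by searching the deposited descriptions; of their 2410 genes 2166 were tested. Per list, the most abundant tested member of up to 4 roles and the most abundant called member in each direction could be named, together with the 6 largest rises and falls, 2 genes listed at 0 in each group and the 3 largest interactions of each sign. Genes listed at 0 in a whole group have no fold, and list medians were also computed with such genes at a floor of 3 counts over the group. Of all values, 134418 of 765360 were 0 and 1598 were 1, so a 0 may be a failed estimate. Shares of counts were compared by an exact two-sided permutation test. Alternatives were DESeq2 1.42.0, limma 3.58.1 on log2(FPKM + 1) and other scalings, filters and libraries.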

Additional observations from a re-analysis of the deposited data

Results flagged for a closer look

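The change between mature and young leaves differed between the typical plant and the variant in 3719 genes by the edgeR interaction test. The 6 genes named for the largest differences (log2, typical minus variant) had uneven libraries, and none was weighed for a cause.

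A SULFUR DEFICIENCY-INDUCED 1-like gene (PH02Gene23067) differed by 7.61 ± 1.75 (edgeR adjusted p = 0.0153), with 119, 17.9 and 0.707 FPKM in typical mature and 0.803, 0.605 and 1.13 FPKM in typical young leaves, against 0.352, 0.772 and 0 FPKM in variant mature and 1.49, 0.819 and 1.03 FPKM in variant young leaves. Its relative PH02Gene40673 differed by 7.18 ± 1.65 (edgeR adjusted p = 0.0151, or 0.0505 without typical mature replicate 1), with 74.5, 11.4 and 0.652 FPKM in typical mature leaves. In both genes typical mature replicate 1 was the highest library and replicate 3 was no higher than young leaves. The ORG3-like factor (PH02Gene21058), named after an iron-response factor of Arabidopsis, differed by 6.74 ± 1.48 (edgeR adjusted p = 0.0121, or 0.0625 without variant young replicate 2), with 7.22, 193 and 216 FPKM in typical mature leaves, against 2.87, 1.00 and 0.469 FPKM in variant mature leaves.

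The YLS9-like gene (PH02Gene43497) differed by -6.00 ± 1.41 (edgeR adjusted p = 0.017), with 0.403, 0.134 and 0.412 FPKM in typical mature leaves, against 9.93, 75.6 and 0.710 FPKM in variant mature leaves. Mixed-linked glucan synthase 6 (PH02Gene46338), of a wall polysaccharide of grasses, differed by -5.98 ± 1.71 (edgeR adjusted p = 0.0392), but by -1.58 without variant mature replicate 2 (edgeR adjusted p = 0.243). Fasciclin-like arabinogalactan protein 1 (PH02Gene44294) differed by -5.87 ± 1.77 (edgeR adjusted p = 0.0478), but by -1.29 without that library (edgeR adjusted p = 0.404). Both genes also lost their call without any 1 typical young or variant young library and without typical mature replicate 2 or 3, and the fasciclin-like gene without typical mature replicate 1. Variant mature replicate 2 had 33.6 FPKM of the synthase and 33.4 FPKM of the fasciclin-like gene, and the other variant mature libraries had at most 0.902 FPKM of either gene.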

How the results depend on the processing

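Of the 16 alternatives to the count of genes called, each kept both directions within 1.5 times; leaving out 1 library gave 22782 to 23779 calls. Of 147 named genes, between 133 and 147 kept direction and side of the threshold under each alternative. Those that turned sign had not passed the test: growth-regulating factor 11-like (PH02Gene45969) was at -0.22, -0.21, -0.21 and -0.20, GIGANTEA (PH02Gene42221) at -0.09, -0.09, -0.09 and -0.03, and endoplasmin (PH02Gene31917) at -0.20, -0.20, -0.20 and -0.12 on the log2 scale in limma on FPKM + 0.1, on FPKM + 1, on all genes, and without the TMM factor; GIGANTEA was called higher without mature replicate 1. The same-numbered libraries of mature and young leaves correlated at 0.055, 0.00378 and 0.0235, so the numbers were not taken as pairs; with the replicate block, 23363 genes were called, and the interaction was called in 2198 genes, 1183 of them negative, with 85 negative cytosolic ribosome and 4 positive Calvin cycle genes. The interaction depended more on the processing, and the cause was not tested. It was called in 6426 genes in DESeq2 (2307 positive, 4119 negative) and in 1356 with near-alike libraries summed (559 and 797). Positive calls numbered 955 and negative ones 4028 without the TMM factor, and negative ones 3710, 3667 and 3478 in limma on FPKM + 0.1, FPKM + 1 and all genes. With 1 library left out, the total ran from 2006 to 4605, positive calls from 784 to 1765 and negative calls from 1188 to 2854. As a share of FPKM, antenna genes had 3.50% in mature and 0.824% in young leaves, and cytosolic ribosome genes 1.66% in mature and 7.45% in young leaves. Genes at or near 0 in a group are limited by depth.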
